A study of Danio rerio with 24 samples.

Results

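Apolipoproteins are the protein part of the lipoprotein particles that carry lipid through blood. Hepatocytes assemble triglyceride and cholesteryl ester around apolipoprotein B with the help of the microsomal triglyceride transfer protein, secrete the particle into plasma, and release apolipoproteins A-I and A-II, which form high-density lipoprotein. Apolipoproteins C and E sit on the surface of these particles, where in mammals apolipoprotein C-II activates lipoprotein lipase, apolipoprotein C-I inhibits lipid uptake and transfer, and apolipoprotein E is the ligand by which remnants are taken up. Zebrafish keep duplicated copies of several of these genes.

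The genes described here are the 10 zebrafish genes apoa1a, apoa1b, apoa2, apoba, apobb.1, apobb.2, apoc1, apoc2, apoea and apoeb, picked by gene name from the 28210 genes counted. They were followed in liver RNA of 24 zebrafish aged 2 months. Z+ fish carried Tg(lfabp:eGFP-T2A-ZAAT), in which the hepatocyte promoter of fabp10a drives green fluorescent protein and the human Z variant of α1-antitrypsin, a misfolding-prone secretory protein that in people forms inclusion bodies in hepatocytes, which the study describes as absent in these fish. A+ fish carried the same construct with human wild-type α1-antitrypsin (AAT). Z- and A- fish were the non-transgenic siblings of the Z+ and A+ fish, and there were 6 fish of each genotype. The transgene is transcribed only where the hepatocyte promoter is active, and carriers came from crosses of heterozygous adults with wild-type TU fish. The number of founders behind each construct is not given in the sources used here, and in Z+ against A+ fish alone the transgene product cannot be told apart from other differences between the lines.

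Counted reads per fish ranged from 33898825 to 44715713, and all 10 genes passed the filter on low counts (more than 100 reads in at least 3 fish), as did 11801 genes in all. The transgene stood at 901 to 6867 CPM (reads per 1e6 counted reads after TMM scaling) in Z+ fish and at 1502 to 4845 CPM in A+ fish, against 0.0978 to 7.32 CPM in Z- fish and 0.215 to 6.05 CPM in A- fish. All 9 hepatocyte markers in the count table had reads in every fish. Vitellogenin genes, which encode the egg-yolk precursors that female liver secretes, took 51.6% of reads in Z+ replicate 5 and 49.2% in Z- replicate 2, against at most 5.19% in the other 22 fish. In A+ replicate 2 ovary markers summed to 2215 CPM. The sex of the fish is not in the labels. Markers of the intestine summed to more than 100 CPM in 5 other fish (Z+ replicates 3 and 6, A+ replicates 5 and 6, A- replicate 6). Where leaving out such fish changed whether a result passed, values from a fit without them are therefore given.

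Apolipoprotein transcripts were among the most abundant in the liver. Together the 10 genes took 6.90% to 11.4% of all counted reads in the 21 fish other than Z+ replicate 5, A+ replicate 2 and Z- replicate 2, with a median of 8.75%. The share was 8.68% to 9.86% in 5 Z+ fish and 9.10% to 11.4% in 5 A+ fish, against 7.09% to 8.75% in 5 Z- fish and 6.90% to 8.94% in 6 A- fish. In the 3 fish set apart it was 2.06% (Z+ replicate 5), 4.70% (A+ replicate 2) and 2.63% (Z- replicate 2). With vitellogenin reads left out of the total, those 3 fish stood at 4.25% to 5.17% and the other 21 at 7.01% to 11.4%, so the 3 remained below all others. The summed hepatocyte markers were 31751 to 71835 CPM in the same 3 fish and 55398 to 151730 CPM in the other 21. In pieces of liver, fewer hepatocytes and less RNA of these genes per hepatocyte cannot be told apart.

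**Figure D1:**
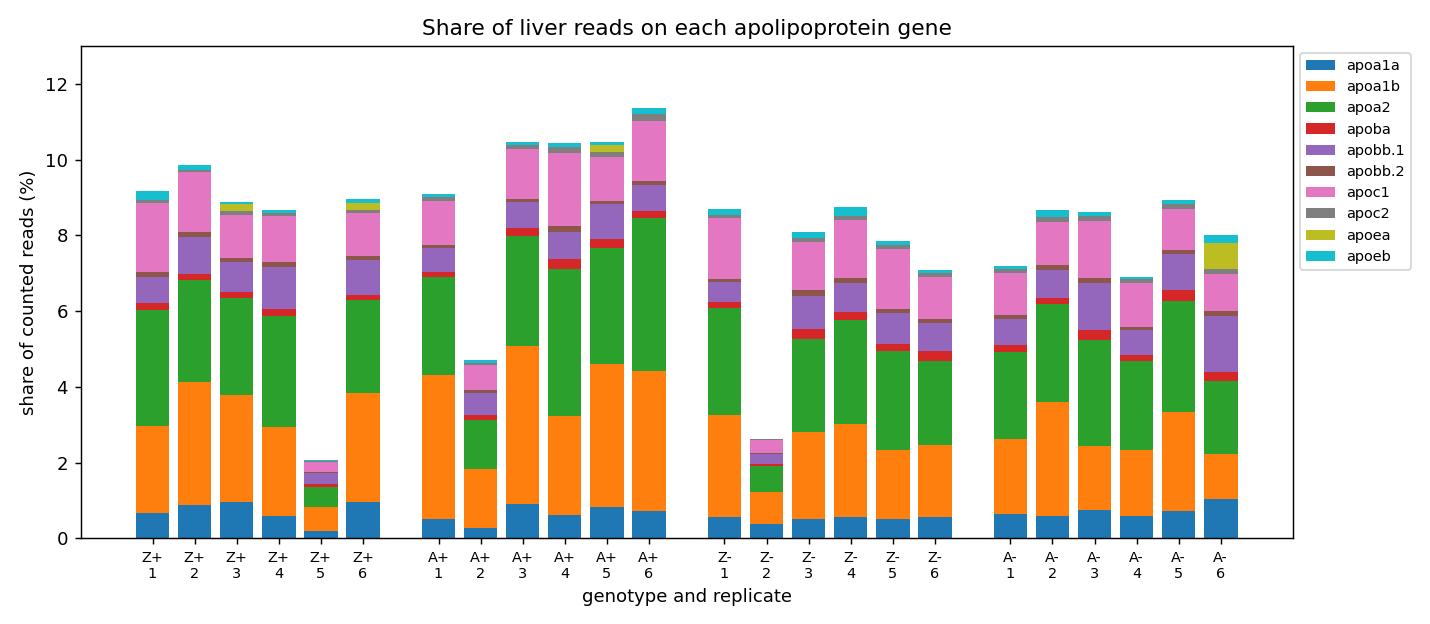
Share of all counted reads (%, y axis) on each of the 10 apolipoprotein genes in each fish (x axis, genotype and replicate), stacked. The bars of Z+ replicate 5, A+ replicate 2 and Z- replicate 2 reach 2.06%, 4.70% and 2.63%, and the other 21 reach 6.90% to 11.4%.

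Most of this share came from 3 genes. apoa2, apoa1b and apoc1 together held 51.4% to 82.8% of the reads on the 10 genes, with a median of 75.5%. Of all reads, the median fish gave 2.60% to apoa2, 2.41% to apoa1b and 1.16% to apoc1. apobb.1 and apoa1a followed at 0.745% and 0.600%, and apoba at 0.186%. apobb.2, apoeb and apoc2 lay at 0.103%, 0.103% and 0.102% and cannot be ranked among themselves. apoea was at 0.000126% in the median fish. These are shares of reads, which grow with transcript length (the transcripts of apolipoprotein B are far longer than those of apolipoproteins A-II and C), so they do not order the genes by number of transcripts. In the RefSeq annotation of the zebrafish assembly GRCz12tu, in which all 10 symbols were found, apoeb, apoc1, apoc4, apoa2 and apoc2 are neighbours in that order, and apoea lies beside apoa4a on another chromosome. apobb.1 and apobb.2 share a chromosome but are not adjacent.

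The central question of the design is what the Z variant does that wild-type AAT does not, and Z+ was therefore set against A+. None of the 10 genes passed the threshold (adjusted p under 0.05, edgeR's quasi-likelihood test with Benjamini-Hochberg adjustment over all 11801 genes), whereas 11.8% of all tested genes did. At an unadjusted p under 0.05 there was 1 of 10, apoc2, against 27.7% of all tested genes. Their median log2 fold change was -0.09, beside -0.02 over all tested genes, and 4 of 10 were positive.

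Among the apolipoproteins of high-density lipoprotein, apoa1a and apoa1b encode duplicate copies of apolipoprotein A-I, the main protein of that particle and the cofactor of cholesterol esterification. apoa1b had a lowest, median and highest value of 9423, 25351 and 36518 CPM in Z+ fish, against 9192, 37572 and 45962 CPM in A+ fish. The lowest fish of each group was the fish rich in vitellogenin or ovary transcripts, and the groups overlapped. On the log2 scale Z+ minus A+ was -0.45 (SE 0.34), for an adjusted p of 0.42. apoa1a had 3147, 7977 and 10160 CPM in Z+ fish, against 1691, 7450 and 9922 CPM in A+ fish (log2 fold change 0.15, SE 0.31, adjusted p = 0.79). The values of this copy spread over nearly the same range in the 2 genotypes. apoa2, which encodes the second structural protein of the particle, had 8383, 26214 and 30315 CPM in Z+ fish, against 7516, 31818 and 45242 CPM in A+ fish (log2 fold change -0.35, SE 0.34, adjusted p = 0.55). A similar sequence in the duplicates could send reads of one to the other, which the counts do not show.

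There are 3 genes for apolipoprotein B, the scaffold of very-low- and low-density lipoprotein. Within genotypes the SD of log2 CPM was 0.46 for apoba and 0.44 for apobb.1. These were smaller than the 0.60 to 0.65 of apoa1a, apoa1b and apoa2, while apobb.2, at 0.59, was close to apoa1a. apoba stood at 993, 1592 and 1918 CPM in Z+ fish, against 859, 2301 and 2986 CPM in A+ fish (log2 fold change -0.41, SE 0.26, adjusted p = 0.32). apobb.1, the copy with most reads, stood at 4551, 8983 and 10947 CPM in Z+ fish, against 3382, 7535 and 9626 CPM in A+ fish (log2 fold change 0.24, SE 0.25, adjusted p = 0.57). The estimates for these copies thus had opposite signs, and each was within 2 standard errors of 0. apobb.2 was at 361 to 1447 CPM in Z+ fish and 466 to 1759 CPM in A+ fish, which gave -0.04 on the log2 scale (SE 0.31, adjusted p = 0.95).

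The C apolipoproteins exchange between particles in plasma. apoc2, whose human counterpart is the activator of lipoprotein lipase, had a lowest, median and highest value of 375, 845 and 1093 CPM in Z+ fish, against 287, 1379 and 2027 CPM in A+ fish. The fitted log2 fold change, -0.74, had a 95% interval from -1.36 to -0.12 (SE 0.30), for an adjusted p of 0.11. The lowest value of either group came from a fish set apart. Without the 3 such fish, Z+ livers ranged from 684 to 1093 CPM and A+ livers from 1118 to 2027 CPM, with no overlap, and apoc2 was lower in Z+ fish (log2 fold change -0.80, SE 0.16, adjusted p = 0.0026), where 19.2% of the 11538 genes then tested passed. With the 5 fish with intestinal transcripts left out as well, the values were 684 to 873 CPM in 3 Z+ fish and 1118 to 1713 CPM in 3 A+ fish, and the gene again passed (-0.83, adjusted p = 0.014, beside 13.2% of all genes). It was the 1 gene of the 10 to pass in each of these sets. With only the 5 fish with intestinal transcripts left out, it did not pass (-0.68, SE 0.37, adjusted p = 0.28). Against Z- siblings, without the 3 fish, apoc2 was at -0.08 (adjusted p = 0.75), with Z- livers at 827 to 1020 CPM. In that fit A+ against A- gave 0.44 (adjusted p = 0.058) and Z- against A- gave -0.28 (adjusted p = 0.35). The difference of (Z+ minus Z-) and (A+ minus A-) was -0.52 (adjusted p = 0.13). apoc1 had 4288, 11920 and 17633 CPM in Z+ fish, against 3934, 13209 and 21591 CPM in A+ fish (log2 fold change -0.14, SE 0.34, adjusted p = 0.83).

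apoeb, 1 of the 2 copies of apolipoprotein E, varied 16.7-fold between the lowest and the highest of the 24 fish. It stood at 132, 923 and 2116 CPM in Z+ fish, against 352, 917 and 1591 CPM in A+ fish, for which the model gave 0.05 on the log2 scale (SE 0.52, adjusted p = 0.96). For the 8 genes other than apoc2 and apoea, the 95% interval of the fold change in Z+ against A+ fish included 1. The lowest bound was 0.447 (apoa1b) and the highest 2.18 (apoeb), while apobb.1 had 0.826 to 1.70 and apoba 0.520 to 1.09. With 6 fish a group, differences inside the interval of a gene were not excluded for that gene.

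**Figure D2:**
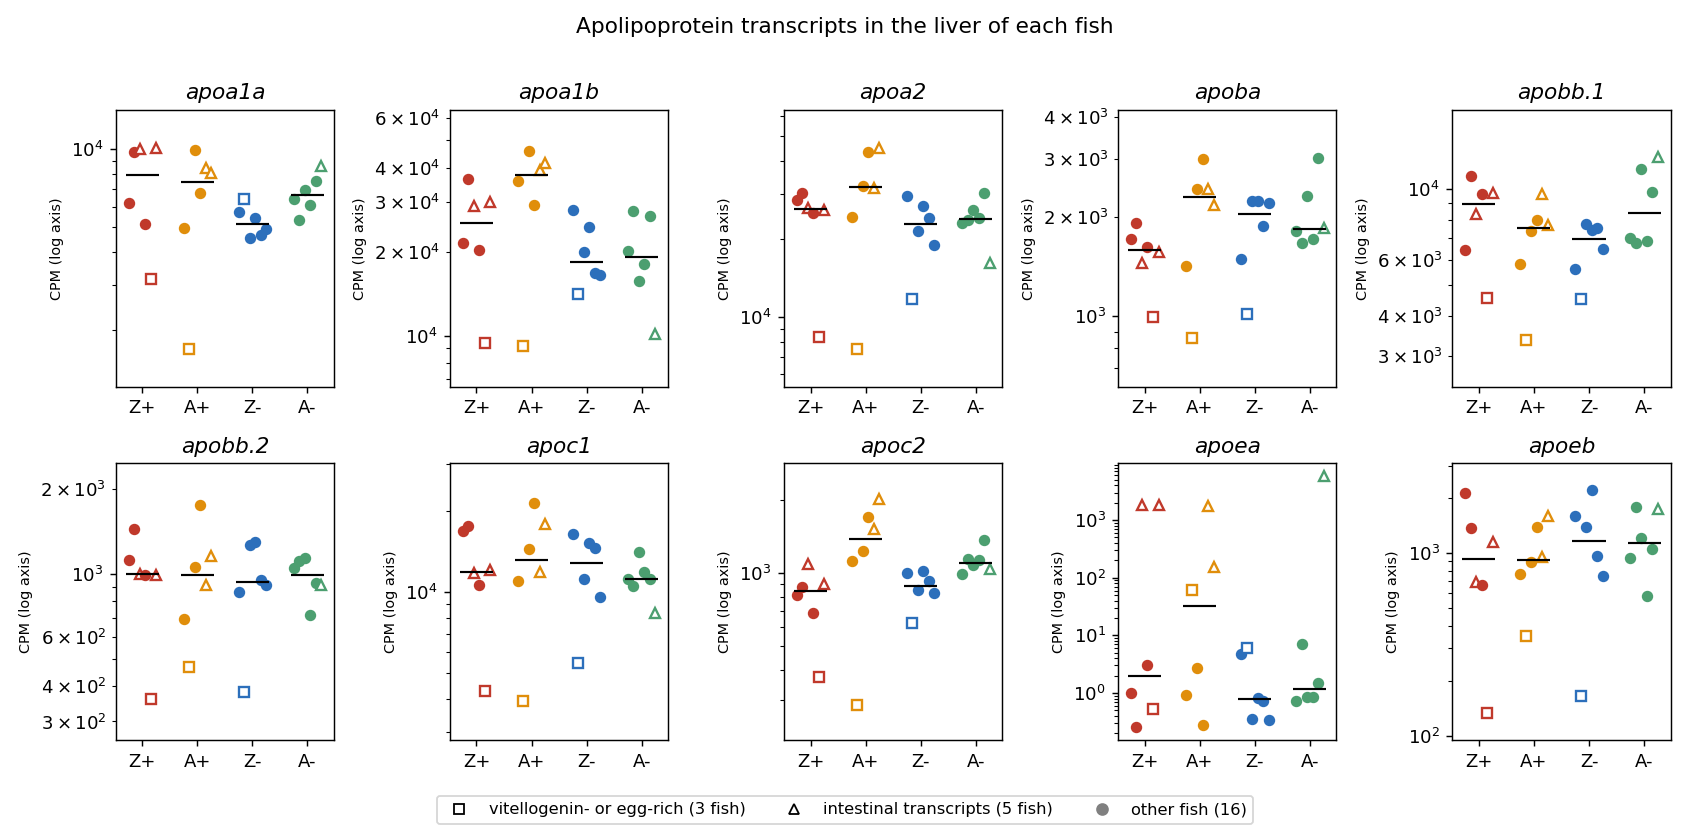
CPM (log axes, a separate range in each panel) of each of the 10 genes in each fish, by genotype (x axis), with the line at the median of 6 fish. Squares are the 3 fish rich in vitellogenin or ovary transcripts, triangles the 5 with intestinal transcripts and filled circles the other 16. In CPM the 3 squares are the 3 lowest fish for 7 genes, and apoea is high in the triangles. A+ replicate 2 had a TMM scaling factor of 1.75. By share of all counted reads it was not among the 3 lowest for apoba, apobb.1, apobb.2 and apoeb.

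apoea, the other copy, followed a different pattern from the rest. It had 1800 and 1859 CPM in Z+ replicates 3 and 6, 1778 and 154 CPM in A+ replicates 5 and 6, and 5849 CPM in A- replicate 6, which are the 5 fish with intestinal transcripts. A+ replicate 2 had 62.1 CPM. The other 18 fish had 0.251 to 6.99 CPM, from 9 to 271 reads. All 6 Z- fish were among these 18. The 9 intestine markers (among them fabp2, the intestinal fatty acid binding protein, and vil1, villin) summed to 163 to 4051 CPM in the 5 fish, to 65.1 CPM in A+ replicate 2 and to 5.12 to 23.0 CPM in the other 18. apoea was 0.949 to 1.44 times that sum in the 5 fish and 0.953 times in A+ replicate 2. Macrophages also express apolipoprotein E in mammals, and their markers summed to 147 to 221 CPM in the 5 fish and 31.0 to 181 CPM in the other 19. Of these 19, only A+ replicates 1 and 4 (180 and 181 CPM) lay within the range of the 5. The next highest was A- replicate 3 at 139 CPM. apoea stood at 0.936 CPM in A+ replicate 1 and 0.277 CPM in A+ replicate 4. The part of macrophages in the apoea values was not tested.

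The fold changes of apoea had wide errors. On the log2 scale it was 0.87 (SE 2.19, adjusted p = 0.83) in Z+ against A+, 8.15 (SE 2.98, adjusted p = 0.073) in Z+ against Z-, -1.55 (SE 2.22, adjusted p = 0.70) in A+ against A- and -8.83 (SE 3.06, adjusted p = 0.15) in Z- against A-. Without the 5 fish the value in Z+ against Z- was -0.81 and in Z+ against A+ -3.80. With the mean level of the intestine markers as a covariate these were -0.57 and -0.19. None of the values without the 5 fish passed the threshold. A+ replicate 2, at 62.1 CPM of apoea, remained in the fit without the 5 fish. Without the 8 fish set apart, the value was 0.03 in Z+ against Z- and 0.08 in Z+ against A+, and neither passed. The apoea values were then 0.251 to 3.03 CPM in 3 Z+ fish and 0.277 to 2.74 CPM in 3 A+ fish.

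**Figure D3:**
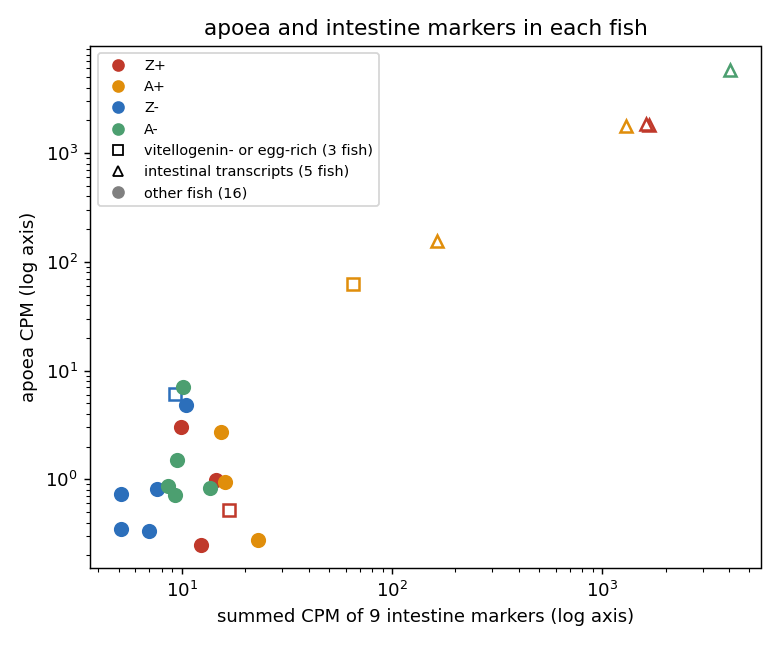
apoea CPM (y axis, log) against the summed CPM of 9 intestine markers (x axis, log) in each of the 24 fish, coloured by genotype, with symbols as in the plot of CPM by fish. The 5 fish with markers above 100 CPM have 154 to 5849 CPM of apoea, and 18 others lie at 0.251 to 6.99 CPM.

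Z+ fish were next set against their Z- siblings, which share the line but lack the transgene. Again 0 of 10 genes passed, beside 12.2% of all tested genes, and at an unadjusted p under 0.05 there was 1 (apoea), beside 29.1%. The median log2 fold change was 0.09, against 0.03 over all tested genes. apoa1a had a lowest, median and highest value of 3147, 7977 and 10160 CPM in Z+ fish, against 4543, 5167 and 6404 CPM in Z- fish (log2 fold change 0.49, SE 0.31, adjusted p = 0.33). All Z- fish lay within the wide range of the Z+ fish. Without the 3 fish rich in vitellogenin or ovary transcripts, apoa1a was higher in Z+ fish (0.71, SE 0.20, adjusted p = 0.017, with 20.8% of all genes passing). The 2 highest Z+ values belonged to the fish with intestinal transcripts. Without the 5 intestinal fish the value was 0.20 (adjusted p = 0.82), and without all 8 fish it was 0.46 (adjusted p = 0.15) and 0 of 10 genes passed, beside 17.3% of all genes. The part of intestinal RNA in this difference was not tested further. The other 8 genes, apoea apart, had log2 fold changes from -0.26 (apoba) to 0.33 (apobb.1).

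Against the mean of both non-transgenic genotypes, Z+ fish gave 0 of 10 calls (16.8% of all tested genes passed), 0 of 10 at an unadjusted p under 0.05 (30.5% of all tested genes), and 7 of 10 positive values. This comparison shares the Z+ fish with the 2 before it. Apart from apoea (3.74, SE 1.86, adjusted p = 0.18), values ran from -0.34 for apoba to 0.30 for apoa1b, and none of the 9 had an adjusted p under 0.33. Without the 3 fish, apoa1a was higher (0.49, adjusted p = 0.034, with 27.2% of all genes passing), and without all 8 fish 0 of 10 passed, beside 23.1% of all genes.

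Wild-type AAT has its own comparison, A+ against A-. Here too 0 of 10 genes passed, beside 10.1% of all tested genes, and at an unadjusted p under 0.05 there was 1 (apoa1b), beside 26.6%. apoa1b had a lowest, median and highest value of 9192, 37572 and 45962 CPM in A+ fish, against 10102, 19074 and 27861 CPM in A- fish. All A+ fish but replicate 2 exceeded every A- fish. The fitted log2 fold change was 0.77 (SE 0.34) with a 95% interval from 0.05 to 1.48, for an adjusted p of 0.16. Without the 3 fish set apart, 2 of 10 genes passed and both were higher in A+ fish, apoa1b by 0.96 (SE 0.23, adjusted p = 0.011) and apoa2 by 0.57 (SE 0.16, adjusted p = 0.027), beside 12.4% of all genes. Without A+ replicate 2 alone apoa1b also passed (0.96, adjusted p = 0.036), as it did with all 24 fish under voom with sample weights (0.81, adjusted p = 0.035). Without the 5 fish with intestinal transcripts alone it was 0.49 (adjusted p = 0.48). With the fish of both kinds left out, apoa1b remained past the threshold (0.81, adjusted p = 0.048) and apoa2 did not (0.43, adjusted p = 0.13), beside 10.4% of all genes.

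The 2 non-transgenic genotypes give the background of the lines. In Z- against A-, 0 of 10 genes passed, beside 1.17% of all tested genes, and 1 (apoea) had an unadjusted p under 0.05, beside 14.6%. apobb.1 stood at 4530, 6983 and 7749 CPM in Z- fish, against 6790, 8398 and 12588 CPM in A- fish (log2 fold change -0.47, SE 0.25, adjusted p = 0.41). The 2 lines overlapped for this gene. The fold changes of the other 8 genes, apoea apart, ran from -0.37 for apoa1a to 0.11 for apoc1. The difference of the 2 transgene effects, (Z+ minus Z-) minus (A+ minus A-), gave 0 of 10 calls, beside 0.525% of all tested genes, and 1 (apoea) at an unadjusted p under 0.05, beside 21.4%. apobb.1 had 0.71 (SE 0.36, adjusted p = 0.25), apoa1a 0.52 (SE 0.44, adjusted p = 0.51) and apoa1b -0.47 (SE 0.48, adjusted p = 0.59). An effect in the A+ comparison without one in the Z+ comparison was therefore not shown to differ between the lines.

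**Figure D4:**
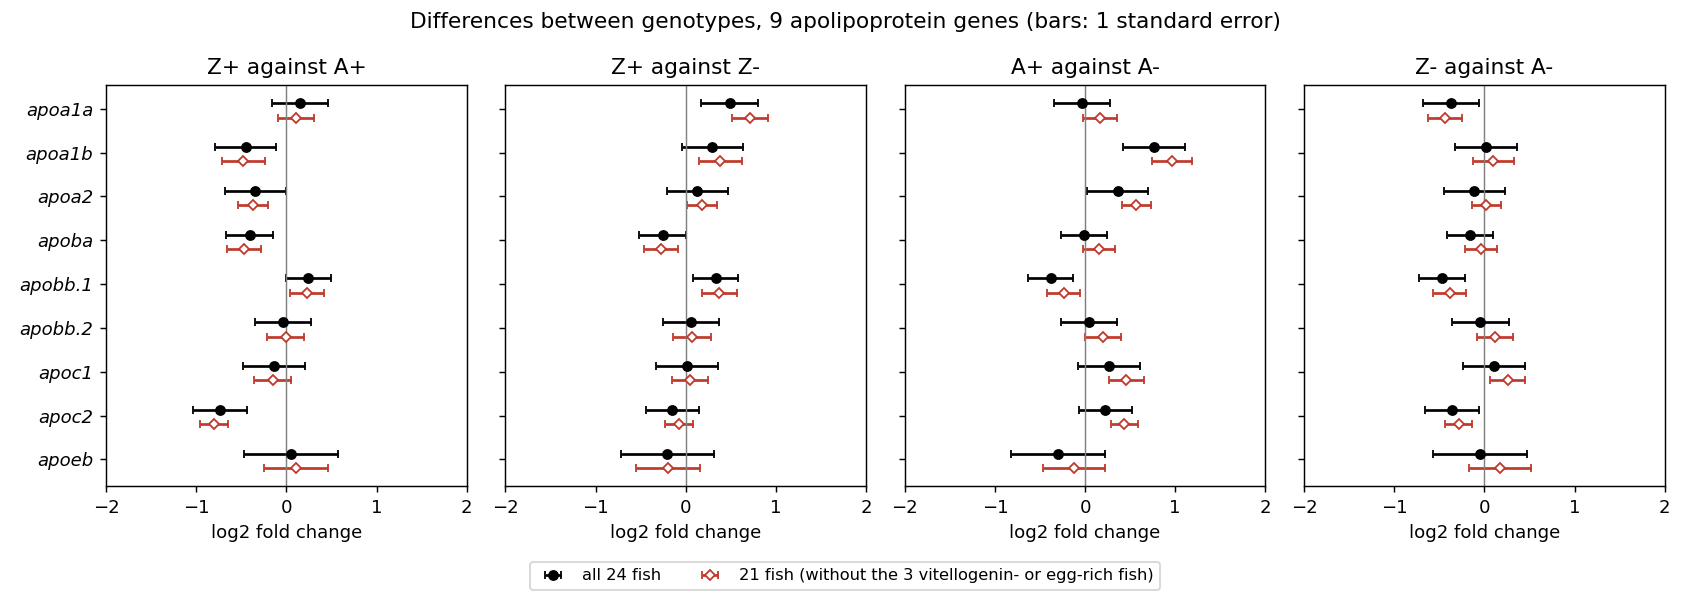
log2 fold change (x axis) of the 9 genes other than apoea in 4 comparisons, with bars of 1 standard error. Black points use all 24 fish and open red diamonds the 21 fish without those rich in vitellogenin or ovary transcripts. The standard errors are smaller in 21 fish, as for apoc2 in Z+ against A+ (0.30 with 24 fish, 0.16 with 21).

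Ratios of 2 genes within a fish do not depend on the scaling between fish, and 5 such pairs (paralogs, and apoc2 to apoc1) were compared between genotypes by an exact permutation test over fish (two-sided, 924 regroupings, smallest p 0.0022), adjusted over 20 tests. The ratio of apoa1b to apoa1a reads was 2.92, 3.23 and 3.95 (lowest, median, highest) in Z+ fish, against 4.35, 4.88 and 7.26 in A+ fish. Every Z+ fish lay below every A+ fish. The mean log2 ratio was 1.73 ± 0.19 in Z+ fish and 2.37 ± 0.27 in A+ fish (SD, n = 6 each), so that Z+ minus A+ was -0.64 (exact permutation test, p = 0.0022, adjusted p = 0.043). This was 1 of the 20 tests to pass. Without A+ replicate 1, which has the highest ratio, the difference was -0.54 and the adjusted p 0.072 by the same exact test. All Z+ fish still lay below the A+ fish left (log2 ratio at most 1.98 against at least 2.12). Without the 8 fish set apart the difference was -0.50 in 3 fish against 3, where the smallest p that can be had is above 0.05. The ratio also did not pass without the 3 or without the 5 fish, where fewer fish limit the smallest p.

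The siblings were compared in the same way. In A+ fish the ratio of apoa1b to apoa1a was 4.35, 4.88 and 7.26, against 1.17, 3.05 and 5.22 in A- fish, and the log2 ratios differed by 0.90 (p = 0.011 by the exact permutation test, 0.054 adjusted). The lowest ratio of all belonged to A- replicate 6, the fish with most intestinal transcripts. Z+ fish (2.92 to 3.95) and Z- fish (2.19 to 4.93) overlapped, and differed by -0.16 (p = 0.43 by the exact permutation test).

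Within apolipoprotein B, the ratio of apobb.1 to apoba was 3.76, 5.74 and 6.20 in Z+ fish, against 2.68, 3.73 and 4.1 in A+ fish and 2.95, 3.62 and 4.45 in Z- fish. In both comparisons 5 of 6 Z+ fish exceeded all the fish they were set against. The difference in mean log2 ratio was 0.58 against A+ (exact permutation p = 0.0087, adjusted p = 0.054) and 0.53 against Z- (exact permutation p = 0.011, adjusted p = 0.054), both just outside the threshold. The exception was Z+ replicate 1. Without it the adjusted p was 0.022 and 0.029 by the same exact test. Without Z- replicate 2 it was 0.043 in both comparisons, and in the other 22 fits with a single fish left out neither passed. A- fish had ratios of 3.25, 4.04 and 6.79, and the highest, in A- replicate 6, exceeded every Z+ fish.

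The apoc2 to apoc1 ratio was 0.0482, 0.0692 and 0.0930 in Z+ fish, against 0.0730, 0.0935 and 0.128 in A+ fish (difference of log2 ratios -0.50, exact permutation p = 0.048, adjusted p = 0.17). Z- and A- fish, neither with a transgene, differed by -0.41 in the same direction (exact permutation p = 0.052, adjusted p = 0.17). For apobb.2 to apobb.1 the 4 differences lay between -0.28 and 0.35, with an unadjusted p of 0.18 or more by the exact permutation test. apoeb exceeded apoea by 1664-fold in the median Z- fish and 669-fold in the median A- fish. In A- replicate 6, the fish with most intestinal transcripts, apoea exceeded apoeb (ratio 0.298). It also did so in Z+ replicates 3 and 6 (0.387 and 0.618) and A+ replicate 5 (0.533), which had intestinal transcripts too. A+ replicate 6, the remaining fish with such transcripts, had a ratio of 10.3.

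**Figure D5:**
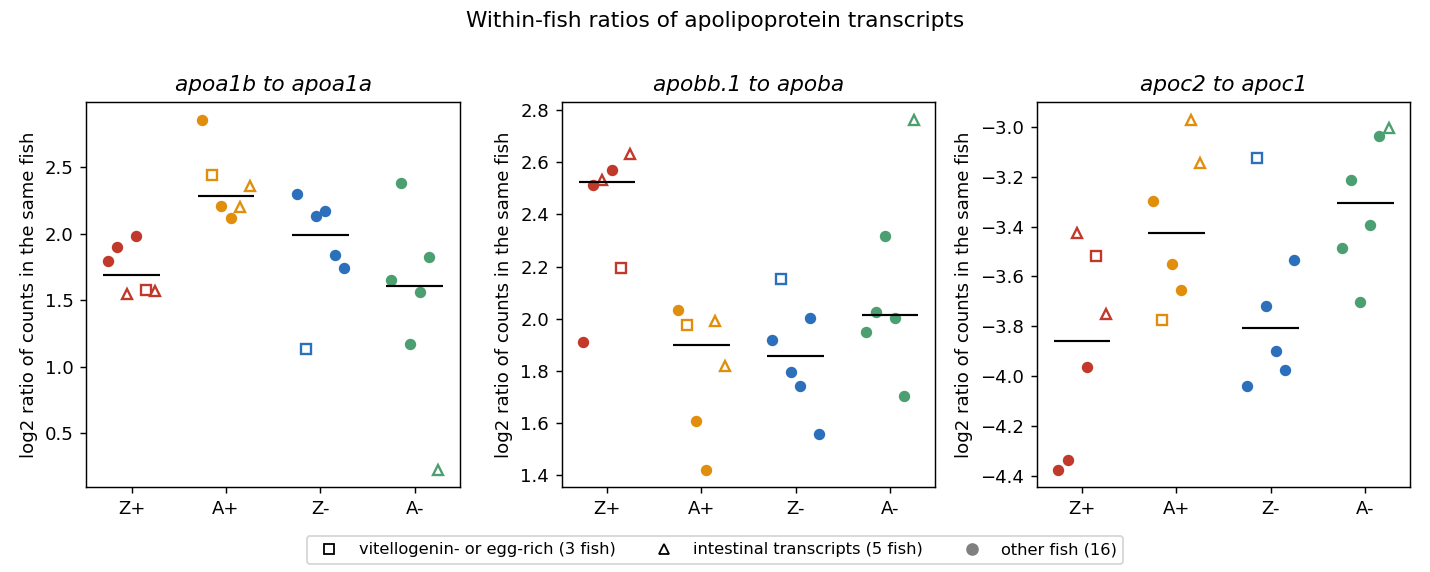
log2 ratio of reads within each fish (y axes) for apoa1b to apoa1a, apobb.1 to apoba and apoc2 to apoc1, by genotype (x axis), with lines at medians and symbols as in the plot of CPM by fish. All 6 Z+ fish lie below all 6 A+ fish in the first panel, at 1.55 to 1.98 against 2.12 to 2.86.

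Across fish, some of these genes varied together. Since the 3 fish set apart form a group of their own that is low for most of the genes, correlations of log2 CPM are given for the other 21 fish, which still share differences of genotype and of RNA composition. Of 45 pairs, 2 passed an adjusted p of 0.05 for both Pearson's r and Spearman's rho (permutation tests, 100000 resamples). apoa2 and apoc1, which lie next to apoc4 on either side, had r = 0.82 (permutation p = 1e-05, the smallest possible, adjusted p = 0.00045) and rho = 0.79 (permutation p = 4e-05, adjusted p = 0.0018). Leaving out the 2 fish farthest from the median of apoa2 gave r = 0.72. apoa1b and apoa2, on different chromosomes, had r = 0.74 (permutation p = 0.00017, adjusted p = 0.0038) and rho = 0.76 (permutation p = 0.00012, adjusted p = 0.0027), and r = 0.64 without the 2 farthest fish. The duplicates apoa1a and apoa1b had r = 0.39, and apobb.1 and apobb.2 r = 0.25. apoc2 and apoc1, of the same gene cluster, had r = 0.35.

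For each gene the transcript with the most similar profile over all 24 fish was looked up among the tested genes outside the 10, as a description that includes the fish set apart. apoc2 was most like apom, which encodes a further apolipoprotein of high-density lipoprotein (r = 0.94 in 24 fish, 0.92 in 21). apoc1 and apoa2 were both most like gstt1a, a glutathione S-transferase (r = 0.96 and 0.95 in 24 fish, 0.89 and 0.83 in 21). apoa1b was most like hpda of tyrosine breakdown (0.91 and 0.87), apoa1a most like the connexin cx28.9 (0.87 and 0.72) and apoea most like chia.2, an acidic chitinase (0.99 and 0.99). For apobb.2 and apoeb, both most like pcxb, a pyruvate carboxylase, r was 0.88 for each in 24 fish but 0.59 and 0.48 in 21, and for apoba (mt-nd6) and apobb.1 (rbms1a) it was 0.88 and 0.85 in 24 fish, and 0.77 and 0.76 in 21. Only apoc2 and apoea kept the same most similar gene in the 21 fish. For all other members another gene then had the highest r.

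Other genes of lipoprotein metabolism, from lists made with earlier results of these data known, were compared in the same fits. Of 13 further apolipoprotein genes tested, 1 was higher and 0 lower in Z+ against A+ fish, with a median log2 fold change of 0.10, beside -0.02 over all tested genes, of which 11.8% passed. This was apol1, a rare transcript at 2.53 ± 1.13 CPM in Z+ fish and 1.14 ± 0.35 CPM in A+ fish (SD, n = 6; log2 fold change 1.15, adjusted p = 0.018), and it did not pass without Z+ replicate 2 (0.85, adjusted p = 0.069). Relative to A- fish (2.65 ± 0.90 CPM) it was lower in A+ fish (-1.22, adjusted p = 0.017). apom had 795 ± 413 CPM in Z+ fish and 1827 ± 1189 CPM in A+ fish and did not pass. apoa4b.2, of the apolipoprotein A-IV genes that zebrafish intestine also expresses, was higher in Z+ against Z- fish (6.35, adjusted p = 0.027) and lower in Z- against A- fish (-7.79, adjusted p = 0.049). Without the 5 fish with intestinal transcripts, the value in Z+ against Z- was 0.025 (adjusted p = 0.99) and that in Z- against A- was -3.95 (adjusted p = 0.00013). Z- fish had 1.33 to 4.93 CPM of apoa4b.2 and A- fish 21.6 to 3806 CPM, without overlap. apof was lower in A+ against A- fish (2.1 ± 1.0 and 14.2 ± 21.4 CPM, -2.76, adjusted p = 0.023), and in Z- against A- fish (-3.06, adjusted p = 0.044). The A- values of apof ranged from 0.925 to 54.2 CPM and overlapped the values of A+ and Z- fish. Without the 8 fish set apart apof passed in neither comparison (adjusted p = 0.10 and 0.071), and without A- replicate 3 alone the value in A+ against A- was -1.53 (adjusted p = 0.12). In Z- against A- apof also did not pass without the 3 or without the 5 fish (adjusted p = 0.067 and 0.058). Against both non-transgenic genotypes apof was lower in Z+ fish (-2.39, adjusted p = 0.019). This did not pass without the 5 or the 8 fish (adjusted p = 0.076 and 0.068). Of the 13 genes, 2 were lower and 0 higher in A+ against A- fish, beside 10.1% of all tested genes. In Z- against A- fish 2 were also lower, beside 1.17%. In Z+ fish 1 passed against Z- fish and 1 against both non-transgenic genotypes, beside 12.2% and 16.8%.

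Of 13 genes of lipoprotein assembly and secretion, 0 passed in Z+ against A+ (median -0.06), beside 11.8% of all tested genes, and 1 was lower in Z+ against Z- fish, beside 12.2%. This was plin2, which coats lipid droplets, at 69.7 ± 56.2 CPM in Z+ fish and 293 ± 188 CPM in Z- fish (log2 fold change -2.07, adjusted p = 0.032). plin2 was also lower on average in A+ fish (90.2 ± 74.5 CPM) than in A- fish (255 ± 122 CPM), without passing in that comparison. In Z- against A- fish 1 of the 13 was lower and 0 higher, beside 1.17% of all tested genes. It was cideb, which acts in the lipidation of apolipoprotein B particles (31.6 ± 5.61 and 59.7 ± 16.5 CPM, -0.92, adjusted p = 0.047). Leaving out 1 fish at a time removed this call in 20 of 24 fits, the calls of apof and apoa4b.2 in Z- against A- in 17 and 15 of 24, and those of plin2 and apoa4b.2 in Z+ against Z- in 5 and 6 of 24. cideb also did not pass without the 5 fish with intestinal transcripts (adjusted p = 0.13), nor apoa4b.2 in Z- against A- without the 3 fish rich in vitellogenin or ovary transcripts (adjusted p = 0.062). Of 14 genes of lipoprotein remodelling, 1 was higher and 0 lower in Z+ against A+ (median -0.13), beside 11.8% of all tested genes in either direction. It was abca1a, the transporter that loads apolipoprotein A-I with cholesterol, at 120 ± 49.0 CPM in Z+ fish and 42.4 ± 9.67 CPM in A+ fish (1.51, adjusted p = 0.0073), with Z+ fish at 72.1 to 185 CPM and A+ fish at 33.0 to 60.6 CPM. The gene was also lower in A+ against A- fish (42.4 ± 9.67 and 167 ± 89.7 CPM, -1.98, adjusted p = 0.0025), and its transgene effect differed between the lines (2.73, adjusted p = 0.012). It was the 1 gene of the 14 to pass in each, beside 10.1% and 0.525% of all tested genes. Z- fish had 71.6 ± 13.5 CPM of abca1a (56.5 to 90.9 CPM), overlapping the Z+ fish, and A- fish ranged from 45.8 to 285 CPM. The gene passed neither in Z+ against Z- nor in Z- against A-. In Z+ against Z- fish 0 genes of this list were higher and 1 was lower (12.2% of all tested genes passed). It was lipg, the endothelial lipase that acts on high-density lipoprotein (27.2 ± 8.46 and 61.5 ± 15.3 CPM, -1.17, adjusted p = 0.017). A+ and A- fish had 36.8 ± 15.8 and 37.3 ± 14.9 CPM of lipg. Against both non-transgenic genotypes lipg was again the 1 gene of the list to pass (-0.81, adjusted p = 0.047), beside 16.8% of all tested genes. Leaving out 1 fish at a time removed that call in 14 of 24 fits.

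Of 18 genes for regulators of apolipoprotein transcription, 2 were higher and 0 lower in Z+ against A+ (median 0.07), a share near the 11.8% of all tested genes. nr1h3, which encodes the oxysterol-activated liver X receptor that in mammals induces ABCA1, was at 21.8 ± 3.10 CPM in Z+ fish, against 11.8 ± 2.01 CPM in A+ fish (0.88, adjusted p = 0.0057) and 12.5 ± 1.75 CPM in Z- fish (0.80, adjusted p = 0.0070). Its 6 Z+ values (18.2 to 26.3 CPM) lay above the A+ values (9.14 to 14.5 CPM) and the Z- values (10.7 to 15.5 CPM). A- fish, at 17.3 ± 6.53 CPM (12.3 to 29.8 CPM), overlapped the Z+ fish, and the highest A- fish exceeded every Z+ fish. The transgene effect on nr1h3 differed between the lines (1.35, adjusted p = 0.017). pparaa, the fatty acid receptor PPARα, was lower in both transgenic genotypes, at 15.5 ± 2.62 CPM in Z+ fish against 59 ± 26 CPM in Z- fish (-1.93, adjusted p = 0.00054), and at 23.7 ± 9.34 CPM in A+ fish against 58.7 ± 25.8 CPM in A- fish (-1.31, adjusted p = 0.016). Without the 8 fish the value in A+ against A- was -1.37 and no longer passed (adjusted p = 0.057). Of the 18 genes, 1 was higher and 1 lower in Z+ against Z- fish, beside 12.2% of all tested genes. In A+ against A- fish 1 was higher and 2 lower, beside 10.1%. Against both non-transgenic genotypes 2 were higher and 1 lower in Z+ fish, beside 16.8%. In the comparison of transgene effects 1 was higher and 0 lower, beside 0.525%. hnf4a, whose mammalian counterpart activates many apolipoprotein genes, was higher in A+ against A- fish (139 ± 42.3 and 90.4 ± 17.9 CPM, 0.62, adjusted p = 0.043) and in Z+ fish against both non-transgenic genotypes (0.65, adjusted p = 0.0077), and neither call held without the 5 fish with intestinal transcripts (adjusted p = 0.19 and 0.075). Without all 8 fish set apart hnf4a passed in both comparisons (0.72, adjusted p = 0.022, in A+ against A- and 0.63, adjusted p = 0.0089, in Z+ against both non-transgenic genotypes). Leaving out 1 fish at a time removed the call of hnf4a in A+ against A- in 9 of 24 fits, as did scaling by library totals (adjusted p = 0.090). Scaled by library totals alone, which moved the median of all genes in Z+ against A+ to -0.21, apol1 and nr1h3 no longer passed in that comparison (adjusted p = 0.061 and 0.072), nor did plin2, lipg and nr1h3 in Z+ against Z- (0.057, 0.063 and 0.098) or abca1a and nr1h3 in the comparison of transgene effects (0.077 and 0.11).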

How the data were processed

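Liver RNA of 24 fish was sequenced by the authors as stranded poly(A) libraries and aligned with STAR in the RNAsik pipeline to GRCz11 with the transgene added, then counted with featureCounts. The strand setting of the counting is not given in the sources used here. The deposited values are these counts, without normalization, for 28210 genes. Which fish were on which sequencing run is not in the labels. The study set aside fish as outliers without naming them in its text, so all 24 were kept. p-values measure the spread between single fish.

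Genes with more than 100 counts in at least 3 fish (11801) were tested in R 4.3.3 with edgeR 4.0.16 (TMM scaling, a quasi-likelihood model of 4 genotype means, two-sided, Benjamini-Hochberg adjustment over all 11801 genes). Standard errors were taken as the log2 fold change divided by the root of F. Between 33898825 and 44715713 counts per fish put the floor of 3 counts at 0.0492 to 0.149 CPM. Log2 CPM used a prior count of 1. Ratios and correlations were tested by permutation in Python 3.11.15 with scipy 1.17.1. The steps were tested on simulated data.

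The members, lists and tests were chosen with earlier results of these data known. All 10 members are named, with up to 3 genes of each list by adjusted p, and 1 most similar gene for each member. Alternatives were DESeq2 1.42.0, its size factors, library totals, no filter or that of edgeR's filterByExpr, limma 3.58.1 voom with sample weights, a vitellogenin or intestine covariate, only the compared groups, a replicate block, prior counts of 0.5 and 5, and each fish left out. Chosen after seeing the data were fits without fish whose vitellogenin share exceeded 40% or whose ovary markers exceeded 1000 CPM, without fish whose intestine markers exceeded 100 CPM, and without both. The values of 1 listed regulator gene, which is included in the counts of its list, are not reported here.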

Additional observations from a re-analysis of the deposited data

Results flagged for a closer look

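In 9 of the 60 sets of 6 values tested (10 genes and 5 ratios in 4 genotypes), 1 fish stood far from the other 5 by Dixon's test, which flags about 1 set in 20 by chance. On the log2 CPM scale, Z+ replicate 5 was far below the other Z+ fish for apoa2 (13.03), apobb.2 (8.50) and apoc1 (12.07), and Z- replicate 2 was far below the other Z- fish for apobb.2 (8.58). These are the fish in which vitellogenin transcripts took 51.6% and 49.2% of reads. A+ replicate 2 was far below the other A+ fish for apoa1b (13.17), apoa2 (12.88) and apoc2 (8.17), and had 2215 CPM of ovary markers. A- replicate 6 was far above the other A- fish for apoea (12.51), and its log2 ratio of apoeb to apoea was the lowest of the A- fish (-1.75), with 4051 CPM of intestine markers. The part of vitellogenin, ovary or intestinal transcripts in these values was not tested beyond the fits without those fish.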

How the results depend on the processing

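The count of 0 of 10 genes became 1 in Z+ against A+ under DESeq2 (apoc2, adjusted p = 0.049), under voom with sample weights (apoc2, 0.0096), without the 3 fish rich in vitellogenin or ovary transcripts and without the 8 fish of both kinds. In Z+ against Z- it became 1 under DESeq2, with only the groups compared (apoea in both, adjusted p = 0.00038 and 0.034) and without the 3 fish (apoa1a), and in Z+ against non-transgenic fish 1 without the 3 fish. In A+ against A- it became 1 under voom (apoa1b, 0.035) and without the 8 fish, and 2 without the 3 fish. Under DESeq2 it was 1 (apoea) in Z- against A- and in the interaction. DESeq2 called 1962 of all 11801 genes in Z+ against A+ and 2147 in Z+ against Z-, beside 1397 and 1436 in the main fit. It called 660 in Z- against A- and 943 in the interaction, beside 138 and 62. Voom called 1976 in Z+ against A+ and 1320 in A+ against A-, beside 1397 and 1196. With only the groups compared, 2200 genes passed in Z+ against Z-. With each fish left out in turn, the counts ranged from 0 to 1 in Z+ against A+, Z+ against Z-, Z+ against non-transgenic and A+ against A-. The fish that made the difference were A+ replicate 2 (apoc2, -0.95, adjusted p = 0.0052, and apoa1b) and A- replicate 6 (apoea, 8.17, adjusted p = 0.024 in Z+ against Z-, and 8.15, 0.0033 against non-transgenic fish). Without A+ replicate 2, 1621 of 11563 genes passed in Z+ against A+ and 1132 in A+ against A-. Without A- replicate 6, 1865 of 11561 genes passed in Z+ against Z- and 2601 against non-transgenic fish.

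Signs of log2 fold changes near 0 turned. In Z+ against A+, apoeb was -0.026 without the filter and -0.23 under voom, apobb.2 was 0.17 and apoc1 0.059 with the vitellogenin covariate, and apoa1a was -0.091 without the 8 fish. Leaving out each fish gave -0.057 to 0.30 for apoa1a, -0.21 to 0.20 for apobb.2, -0.34 to 0.044 for apoc1 and -0.30 to 0.27 for apoeb. apoea turned with the intestine covariate (-0.19 in Z+ against A+, -0.57 in Z+ against Z-, -0.45 against non-transgenic fish, 0.25 in Z- against A- and -0.43 in the interaction), without the 5 fish with intestinal transcripts (-3.80, -0.81, -0.84 against non-transgenic fish and -3.76 in the interaction) and without the 8 fish (-0.30 against non-transgenic fish). The ratio of apoeb to apoea turned in Z+ against A+ without the 3 fish (-0.71; each fish left out, -1.04 to 1.81), in Z+ against Z- without the 5 fish (0.14) and in A+ against A- without the 8 fish (0.54). Of 20 ratio tests, 1 passed. The count was 0 without the 3, the 5 or the 8 fish, where fewer fish limit the smallest p, and ranged from 0 (without A+ replicate 1) to 5 (without Z- replicate 2) with each fish left out. It was 3 without Z+ replicate 1 and 2 without A- replicate 2. Of the calls gained without Z- replicate 2, those of Z+ against A+ and A+ against A- do not involve that fish. Their differences stayed at 0.58 (apobb.1 to apoba) and 0.90 (apoa1b to apoa1a), and only the adjustment over the 20 tests moved.

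The replicate numbers did not pair fish (same-number correlations of deviations from -0.24 to 0.29). With the number as a replicate block, 0 of 10 genes passed in every comparison, 788 of all genes passed in Z+ against A+, and signs turned for apobb.2 (0.013), apoeb (-0.028) and apoea (-0.81) there and for apoea in the interaction (-0.24). Another 32 values outside Z+ against A+ lay within their own standard error; under the alternatives 131 of their 1177 values had the other sign and 0 passed the threshold. The cause of these changes was not tested.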
